A study of Mus musculus with 22 samples.

Results

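A set of 10 genes commonly used as markers of astrocytes was followed through RNA-seq libraries of mouse neural stem cells: Gfap, S100b, Aldh1l1, Gja1, Slc1a2, Slc1a3, Acsbg1, Clu, Apoe and Glul. They were taken by name, as 10 of the 24411 genes in each of the 2 deposited tables, and the choice was made with earlier results of these data known. The cells were primary neural stem cells from the hippocampus of adult mice, kept as an adherent culture in growth medium with EGF and bFGF at 10 ng/ml each, growth factors that keep such cells dividing, and all 4 groups shared this medium. In the knockdown arm, 5 libraries (shOgt) came from cells given lentivirus with a short hairpin RNA against Ogt and 6 (shLuc) from cells given lentivirus with a hairpin against luciferase, with RNA taken after 3 days of exposure to 10 viral particles per cell. The inhibitor arm held 5 libraries of cells exposed to OSMI-1, an inhibitor of O-GlcNAc transferase, at 12.5 µM (OSMI-1) and 6 of cells given the DMSO vehicle (vehicle), and exposure lasted 24 h. Strain, age in months, sex, genotype and the hairpin sequence are not given in the labels. It is also not given whether replicates were independent cultures, so p-values reflect only the spread between these libraries, which may be technical.

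O-GlcNAc transferase, encoded by Ogt, adds the sugar O-GlcNAc to proteins of the nucleus and cytosol, and the series asked how loss of this modification bears on the fate of hippocampal stem cells. Astrocytes take up glutamate from synapses, turn it into glutamine, buffer ions, supply lipids in lipoprotein particles and are joined to one another by gap junctions, and the 10 genes mark those functions. Adult hippocampal stem cells are themselves radial glia-like and share much of this programme with astrocytes, so RNA of a marker in such a culture does not by itself tell the cell types apart. In bulk RNA, fewer cells expressing a gene and less RNA per cell cannot be told apart either.

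Knockdown libraries held 7.22 to 13.2 M recovered reads and inhibitor libraries 4.52 to 12.8 M, of which the ribosomal RNA precursor Rn45s took 0.921 to 1.25% and 4.81 to 14.2%. Ogt itself, the targeted gene, averaged 424 ± 63.9 normalized counts in shOgt and 836 ± 89.8 in shLuc (SD, n = 5 and 6, as for all knockdown means below, log2 fold change -0.98 ± 0.11, limma adjusted p = 1.1e-06), with every shOgt library below every shLuc library. The error after a log2 fold change is its standard error throughout. Under OSMI-1, which acts on the enzyme and not on its RNA, Ogt averaged 599.9 ± 42.5 normalized counts in OSMI-1 and 455 ± 37.6 in vehicle and rose (SD, n = 5 and 6, as for all inhibitor means below, log2 fold change 0.40 ± 0.08, limma adjusted p = 0.001). Mgea5, which encodes the enzyme that removes the sugar, averaged 281 ± 65.9 normalized counts in shOgt and 378 ± 59.7 in shLuc (log2 fold change -0.44 ± 0.15, adjusted p = 0.029), a call lost without any 1 of 8 libraries (shLuc 2, 4, 5 or 6, shOgt 1, 2, 3 or 5, adjusted p up to 0.078). Under OSMI-1 it averaged 277 ± 42.8 in OSMI-1 and 253 ± 38.9 in vehicle and did not pass (adjusted p = 0.47). On principal components, 3 knockdown libraries (shLuc 1 and 3, shOgt 3) and 2 inhibitor libraries (vehicle 1 and OSMI-1 5) stood apart in earlier work on these data, and without them the counts of markers that rose and fell were the same in both arms.

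The promoters of 3 members are shown as examples of 3 patterns of change: Slc1a3 fell in both arms, Acsbg1 moved in opposite directions, and S100b rose under OSMI-1. Each line is the 250 bases before the transcription start, 5′ to 3′ on the gene's strand, from RefSeq on GRCm38.p6, and RefSeq entries were matched for 9 of the 10 members. Capitals mark matches on either strand to the letters TTCNNNGAA (the palindrome that STAT factors bind) or TTGGC (the core of sites for NFI factors), both factor families being known regulators of astrocyte genes. The Slc1a3 stretch lies at chr15:8710808-8711057 on the minus strand, the Acsbg1 stretch at chr9:54661886-54662135 on the minus strand and the S100b stretch at chr10:76253586-76253835 on the plus strand.
Slc1a3: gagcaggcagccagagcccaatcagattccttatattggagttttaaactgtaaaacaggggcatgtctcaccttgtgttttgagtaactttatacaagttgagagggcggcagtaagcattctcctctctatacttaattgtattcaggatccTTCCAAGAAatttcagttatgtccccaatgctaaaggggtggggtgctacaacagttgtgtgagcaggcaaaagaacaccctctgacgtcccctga
Acsbg1: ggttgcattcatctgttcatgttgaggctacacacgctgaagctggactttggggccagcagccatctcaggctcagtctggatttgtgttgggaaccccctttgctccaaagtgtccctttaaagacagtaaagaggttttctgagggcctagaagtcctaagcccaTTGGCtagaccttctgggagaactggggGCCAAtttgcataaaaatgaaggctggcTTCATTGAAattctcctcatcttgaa
S100b: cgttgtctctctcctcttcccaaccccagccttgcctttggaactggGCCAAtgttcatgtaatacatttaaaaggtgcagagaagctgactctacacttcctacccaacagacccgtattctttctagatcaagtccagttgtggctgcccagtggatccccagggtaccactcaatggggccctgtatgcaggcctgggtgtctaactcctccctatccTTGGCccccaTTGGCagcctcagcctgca
The STAT letters lay 96 to 88 bases before the start in Slc1a3 and 26 to 18 bases before it in Acsbg1, and these were the 2 members of 9 that held them. They occurred in 7.02% of all 32851 upstream windows of the same length. The NFI core was found in 5 of 9 members (Acsbg1, Apoe, Glul, S100b and Slc1a2) and in 41.5% of all windows. The AP-1 letters TGANTCA were found in Gja1, against 6.75% of all windows, and the SOX letters CTTTGT in Apoe, against 16.5%. None of these motifs overlapped another in the 3 sequences shown. In these 3 genes the RefSeq start lies upstream of the gene start in the GENCODE annotation, so the distances depend on the annotation used. A match describes the letters only, and the binding of no factor was measured.

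Per transcript length, the 10 markers covered a wide range of levels, and the 2 most abundant were Acsbg1 and Slc1a3. Acsbg1, a bubblegum-family acyl-CoA synthetase that activates long-chain fatty acids, stood at 488 ± 34.3 RPKM in shOgt and 627 ± 34.4 RPKM in shLuc (RPKM, reads scaled by transcript length and by the library total). In shLuc this placed it at percentile 99.2 of the tested genes with a known length. Slc1a3, the glutamate and aspartate transporter GLAST that radial glia and astrocytes both carry, stood at 206 ± 10.1 RPKM in shOgt and 286 ± 14.6 RPKM in shLuc. At the other end, Gfap, the intermediate filament protein of mature and reactive astrocytes and of radial glia-like stem cells in the tissue, stood at 0.570 ± 0.277 RPKM in shOgt and 0.697 ± 0.154 RPKM in shLuc. Slc1a2, the transporter GLT-1 that carries most glutamate uptake by mature astrocytes, was also low, at 2.42 ± 0.407 RPKM in shOgt and 3.21 ± 0.481 RPKM in shLuc. In vehicle the 4 highest markers were again Acsbg1, Slc1a3, Aldh1l1 and Apoe and the 3 lowest S100b, Slc1a2 and Gfap. In the inhibitor arm Acsbg1 stood at 454 ± 47.8 RPKM in OSMI-1 and 375 ± 37.2 RPKM in vehicle and Gfap at 0.220 ± 0.197 RPKM in OSMI-1 and 0.614 ± 0.332 RPKM in vehicle. The remaining 6 markers lay between these extremes. In shLuc, the order from high to low was Aldh1l1 at 66.6 ± 3.02 RPKM, Apoe at 52.99 ± 5.77 RPKM, Clu at 31.2 ± 3.18 RPKM, Gja1 at 28.2 ± 1.87 RPKM, Glul at 26.6 ± 3.22 RPKM and S100b at 9.26 ± 1.06 RPKM. Clu and Gja1, and Gja1 and Glul, were neighbours whose ranges over shLuc libraries overlapped.

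**Figure D1:**
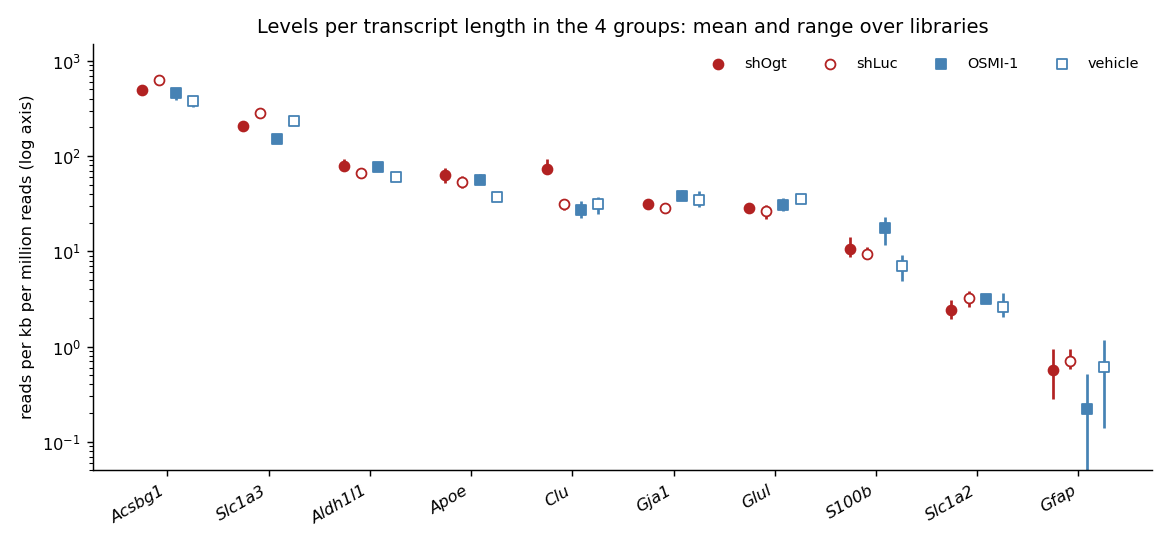
Level of each marker per transcript length, in RPKM on a log axis, with genes ordered by their level in shLuc. Points are group means (red circles knockdown arm, blue squares inhibitor arm, filled for shOgt and OSMI-1, open for shLuc and vehicle) and lines span the lowest to highest library; the line of Gfap under OSMI-1 is cut at the bottom because 1 library held 0 reads.

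These levels were set against other genes of astrocytes and stem cells. Among further astrocyte markers, Cst3, Mlc1, Prdx6 and Mt3 were high in shLuc, at 1034 ± 118 RPKM, 369.6 ± 19.6 RPKM, 271 ± 17.4 RPKM and 214 ± 23.9 RPKM. The water channel Aqp4, which marks mature astrocytes, stood at 0.0302 ± 0.0406 RPKM in shLuc and 0.0553 ± 0.0622 RPKM in vehicle, and the astrocyte connexin Gjb6 had 0 reads in every knockdown library. The stem cell and radial glia genes Fabp7, Vim and Nes stood at 1471 ± 143 RPKM, 341 ± 14.9 RPKM and 88.2 ± 6.12 RPKM in shLuc. Other stem cell markers were low there: Sox2 stood at 3.09 ± 1.03 RPKM, Hes5 at 0.237 ± 0.200 RPKM, Prom1 at 0.201 ± 0.186 RPKM, Msi1 at 0.111 ± 0.112 RPKM and Hopx at 0.0478 ± 0.0596 RPKM, and Thbs4 had 0 reads in every library. Both lists thus held high and low members, among the astrocyte markers also Hepacam at 109.6 ± 4.26 RPKM, Aldoc at 92.5 ± 5.10 RPKM and Slc25a18 at 50.9 ± 4.38 RPKM.

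The knockdown comparison asks how the markers responded to loss of Ogt RNA. One of the 10, Clu, was higher in shOgt and 3 were lower (Slc1a3, Acsbg1 and Slc1a2), while 6 did not pass the test. A call here means an adjusted p below 0.05 from limma on log2(normalized count + 1), adjusted over all 12136 genes tested. Of those genes, 15.4% rose, 16.4% fell and 31.8% were called in either direction, and the markers' 4 of 10 stand against that background. All 10 markers passed the filter on low counts. Their median log2 fold change was 0.09, against 0.01 over all tested genes, and their median absolute log2 fold change was 0.31, against 0.27. The authors' deposited table, edgeR's quasi-likelihood test and DESeq2 each called 4 markers as well.

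Among the glutamate genes, Slc1a3 had 8338, 8509, 8219.9, 9072 and 8598 normalized counts in the 5 shOgt libraries, and its shLuc libraries ran from 11757 to 13127 with a median of 12216. Every shOgt library lay below every shLuc library. The means were 8547 ± 328 normalized counts in shOgt and 12303 ± 473 in shLuc, a log2 fold change of -0.53 ± 0.05 (adjusted p = 3.3e-07, limma). The gene lies on the minus strand at chr15:8634124-8710764 (GRCm38, GENCODE). The other transporter, Slc1a2, had 226, 289, 272, 353 and 259 normalized counts in shOgt, and its shLuc libraries ran from 325 to 458 with a median of 381. Its groups overlapped, with 4 of 5 shOgt libraries below the lowest shLuc library, and the log2 fold change was -0.46 ± 0.13 (adjusted p = 0.01, limma). Glul, the glutamine synthetase that turns glutamate into glutamine, averaged 800.4 ± 72.97 normalized counts in shOgt and 769 ± 99.4 in shLuc (log2 fold change 0.06 ± 0.10, 95% interval -0.15 to 0.27, adjusted p = 0.68). The ratio of Slc1a2 to Slc1a3 reads ranged over 0.0271 to 0.0389 in shOgt and 0.0261 to 0.0368 in shLuc, and these ranges overlapped.

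Of the metabolic markers, Acsbg1 had 15024, 14225, 15246, 12962 and 12668 normalized counts in shOgt, and its shLuc libraries ran from 17228 to 20902 with a median of 18395. No shOgt library reached the lowest shLuc library, and the log2 fold change was -0.42 ± 0.06 (adjusted p = 5.9e-05, limma). The gene lies on the minus strand at chr9:54604877-54661870. Aldh1l1, a folate enzyme widely used to mark all astrocytes, averaged 3246 ± 438 normalized counts in shOgt and 2877 ± 134 in shLuc (log2 fold change 0.17 ± 0.08, adjusted p = 0.11). Its shOgt libraries were uneven, with shOgt 1 at 3897 and shOgt 3 at 3502 above all shLuc libraries, and the other 3 inside their range.

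The secreted apolipoproteins differed from each other. Clu, which encodes clusterin, an extracellular chaperone, had 1659.6, 1337, 1252, 1187 and 1222 normalized counts in the shOgt libraries, and its shLuc libraries ran from 528 to 664 with a median of 582. The lowest shOgt library lay well above the highest shLuc library, the ratio of means was 2.28, and the log2 fold change was 1.18 ± 0.10 (adjusted p = 3.3e-08, limma). Clu lies on the plus strand at chr14:65968483-65981547. Apoe, the main lipid carrier made by astrocytes, had 757, 1062, 1043, 918 and 707 normalized counts in shOgt, and its shLuc libraries ran from 668 to 899 with a median of 766. The groups overlapped and the change did not pass (log2 fold change 0.20 ± 0.12, 95% interval -0.04 to 0.45, adjusted p = 0.19). The ratio of Clu to Apoe reads was 1.20 to 2.19 in shOgt and 0.610 to 0.869 in shLuc, without overlap, and includes the rise of Clu.

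Gja1, which encodes connexin 43, the main gap junction protein of astrocytes, averaged 1006 ± 47.5 normalized counts in shOgt and 928 ± 50.7 in shLuc (log2 fold change 0.12 ± 0.07, 95% interval -0.04 to 0.27, adjusted p = 0.25). S100b, a calcium-binding protein of astrocytes that oligodendrocyte precursors also make, averaged 156 ± 33.1 normalized counts in shOgt and 142 ± 17.8 in shLuc (log2 fold change 0.11 ± 0.16, 95% interval -0.22 to 0.45, adjusted p = 0.64). Gfap had 9.78, 12.8, 25.4, 20.3 and 7.28 normalized counts in shOgt, and its shLuc libraries ran from 15.7 to 25.2 with a median of 16.8. The shOgt libraries spread on both sides of the shLuc range, and with 7 to 27 reads per library the interval of the log2 fold change, -1.25 to 0.40, leaves a change of more than 2-fold downward undecided at this depth (adjusted p = 0.45).

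**Figure D2:**
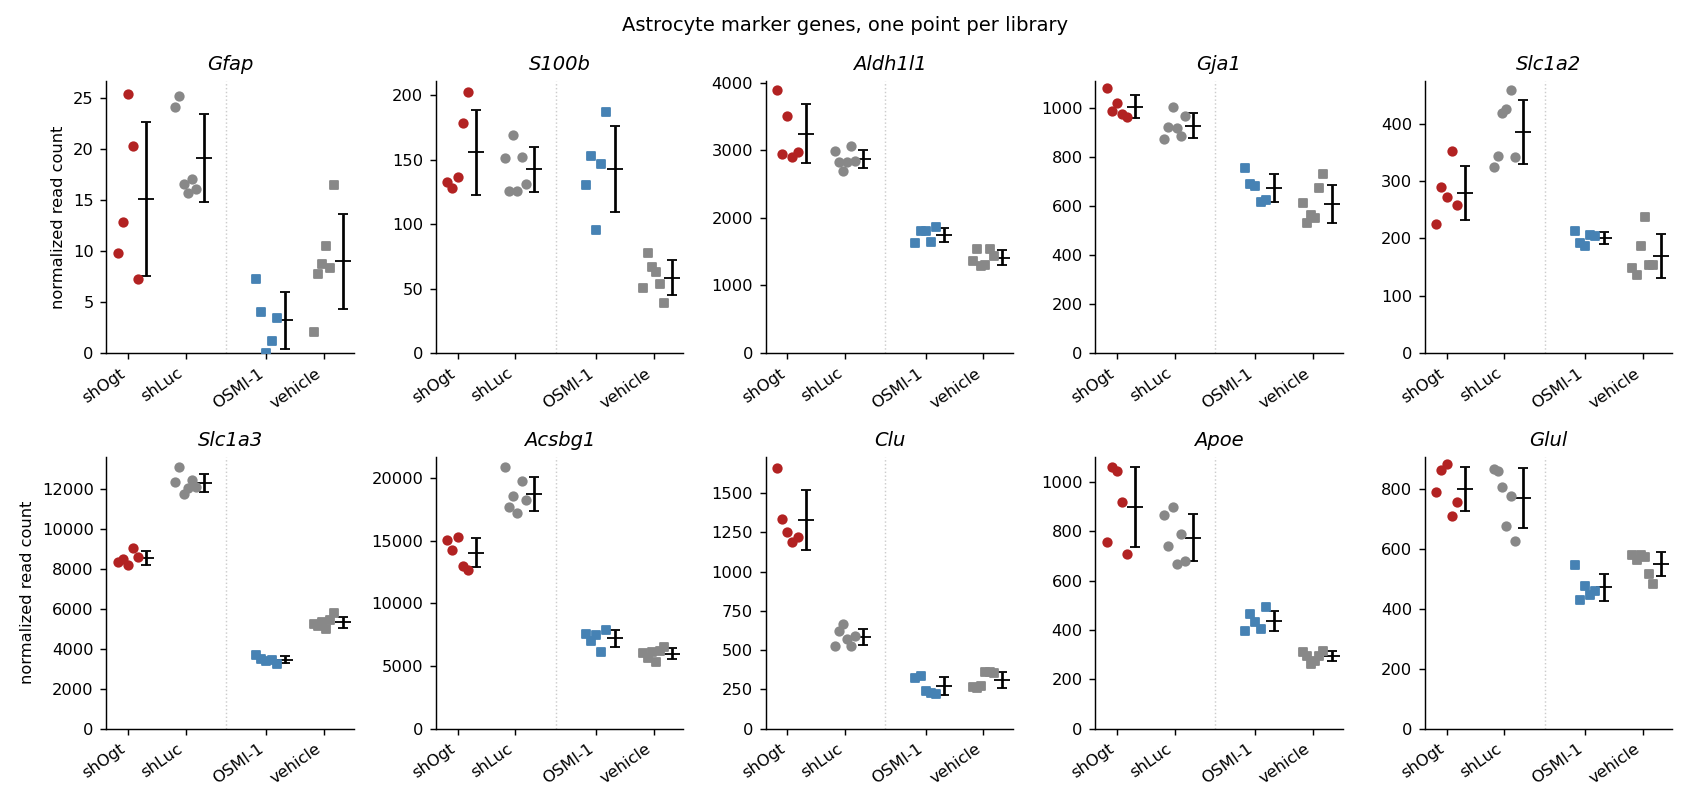
Normalized read count of each marker in every library, 1 panel a gene with its own axis from 0. Circles are the knockdown arm (red shOgt, grey shLuc), squares the inhibitor arm (blue OSMI-1, grey vehicle), and black bars give mean ± SD; the tables of the 2 arms have separate scales, so groups are compared within an arm. All shOgt points of Clu lie above shLuc, all OSMI-1 points of S100b and Apoe lie above vehicle, and Slc1a3 is lower in both treated groups.

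The inhibitor comparison asks the same of a 24 h block of the enzyme. Under OSMI-1, 4 of the 10 markers rose (S100b, Apoe, Aldh1l1 and Acsbg1) and 1 fell (Slc1a3). Of the 11349 genes tested, 11.6% rose, 13.2% fell and 24.8% were called in either direction. Gfap did not pass the filter on low counts, so 9 markers were tested, of which 4 were not called. The median log2 fold change of the 9 was 0.27, against 0.00 over all tested genes. The authors' deposited table and edgeR called 5 markers too, and DESeq2 called 6, adding Glul.

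Slc1a3 was again lower. It had 3699, 3496, 3389.7, 3462 and 3230.2 normalized counts in the 5 OSMI-1 libraries, and its vehicle libraries ran from 5001 to 5780.5 with a median of 5275. The groups were apart, and the log2 fold change was -0.62 ± 0.06 (adjusted p = 4.3e-08, limma). Slc1a2 averaged 200.2 ± 10.7 normalized counts in OSMI-1 and 169 ± 37.9 in vehicle (log2 fold change 0.27 ± 0.13, adjusted p = 0.15), and every OSMI-1 library lay inside the vehicle range, whose top was vehicle 4 at 238. Without vehicle 4 its adjusted p was 0.032. The ratio of Slc1a2 to Slc1a3 reads was 0.0548 to 0.0631 under OSMI-1 and 0.0264 to 0.0476 in vehicle, and all 5 OSMI-1 libraries lay above the vehicle range. This ratio includes the fall of Slc1a3 and is not a separate result on Slc1a2. Glul had 547, 429, 477, 446 and 458 normalized counts under OSMI-1, and its vehicle libraries ran from 483 to 581 with a median of 569.7. Of the 5 OSMI-1 libraries, 4 lay below all vehicle libraries, but the log2 fold change of -0.22 ± 0.09 did not pass (adjusted p = 0.06, limma). It passed without vehicle 6 (adjusted p = 0.034) and without OSMI-1 1 (adjusted p = 0.022).

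The metabolic markers were both higher. Aldh1l1 had 1634, 1805, 1807, 1639.5 and 1865 normalized counts under OSMI-1, and its vehicle libraries ran from 1294 to 1532 with a median of 1398. The groups did not overlap (log2 fold change 0.31 ± 0.07, adjusted p = 0.0017, limma). Acsbg1 had 7577, 7023, 7464, 6072 and 7832 normalized counts, and its vehicle libraries ran from 5305 to 6547 with a median of 6085. The OSMI-1 libraries lay above all vehicle libraries in 4 cases, and OSMI-1 5 lay among them (log2 fold change 0.27 ± 0.07, adjusted p = 0.0077, limma). With Slc1a3 lower and Acsbg1 higher, the ratio of Acsbg1 to Slc1a3 reads was 1.75 to 2.42 under OSMI-1 and 1.06 to 1.16 in vehicle. In the knockdown arm the same ratio overlapped between groups, at 1.43 to 1.85 in shOgt and 1.35 to 1.69 in shLuc.

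S100b showed the highest fold change of the markers under OSMI-1. It had 130.3, 153, 95.5, 147 and 187 normalized counts in the OSMI-1 libraries, and its vehicle libraries ran from 38.8 to 77.8 with a median of 58.4. Every OSMI-1 library exceeded every vehicle library, the ratio of means was 2.44, and the log2 fold change was 1.28 ± 0.19 (adjusted p = 2.5e-05, limma). S100b lies on the plus strand at chr10:76253853-76261159. Apoe had 396, 463, 432, 402 and 494 normalized counts under OSMI-1, and its vehicle libraries ran from 263 to 315 with a median of 295. Again the groups were apart (log2 fold change 0.58 ± 0.09, adjusted p = 5.4e-05, limma). Clu averaged 269 ± 57.5 normalized counts in OSMI-1 and 311 ± 52.2 in vehicle and did not pass (log2 fold change -0.22 ± 0.13, 95% interval -0.49 to 0.06, adjusted p = 0.25). The ratio of Clu to Apoe reads did not overlap, at 0.443 to 0.823 under OSMI-1 and 0.850 to 1.31 in vehicle. This ratio includes the rise of Apoe and is not a separate result on Clu. Gja1 averaged 674 ± 56.3 normalized counts in OSMI-1 and 609 ± 77.7 in vehicle (log2 fold change 0.15 ± 0.09, 95% interval -0.04 to 0.34, adjusted p = 0.24).

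Gfap had 7.29, 4.05, 0, 1.19 and 3.44 normalized counts under OSMI-1, and its vehicle libraries ran from 2.04 to 16.5 with a median of 8.53. The library at 0 (OSMI-1 4) held 12.8 M reads, so a count of 0 allows up to 1.29 normalized counts there, counting error only. The groups overlapped through vehicle 1 alone, and the difference of means was -5.78 normalized counts (exact permutation test, two-sided, p = 0.039, where the smallest p this design allows is 0.0043). The p rose above 0.05 when any 1 of 8 libraries was left out (OSMI-1 4, 5 or 6, or vehicle 2, 3, 4, 5 or 6), with p between 0.0079 and 0.086 over all 11 omissions. Over all libraries the difference rests on 16 reads in OSMI-1 and 49 reads in vehicle. The authors' deposited table gives Gfap an adjusted p of 0.114 in this arm.

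Set side by side, the arms shared 2 called markers. Slc1a3 fell in both, and Acsbg1 fell in shOgt and rose under OSMI-1. Another 2 were called after knockdown alone (Clu and Slc1a2) and 3 under OSMI-1 alone (S100b, Apoe and Aldh1l1), which by itself does not show that the responses differed. The difference itself was tested with limma over all 22 libraries, as the log2 fold change of knockdown minus that of OSMI-1, in the 11269 genes tested in both arms, of which 22.9% were called. Of the 9 markers tested, 4 differed: Clu by 1.40 ± 0.17 (adjusted p = 2.8e-07), Acsbg1 by -0.68 ± 0.10 (adjusted p = 3.9e-06), S100b by -1.16 ± 0.25 (adjusted p = 9.4e-04) and Slc1a2 by -0.73 ± 0.19 (adjusted p = 0.0046). Slc1a3 gave a difference of 0.10 ± 0.08 (adjusted p = 0.39), Gja1 of -0.03 ± 0.12 (adjusted p = 0.86) and Aldh1l1 of -0.15 ± 0.10 (adjusted p = 0.33). Glul gave 0.29 ± 0.13 (adjusted p = 0.12). Apoe gave -0.37 ± 0.15 and missed the threshold (adjusted p = 0.068), though it passed without shLuc 4 (adjusted p = 0.047), shOgt 2 (adjusted p = 0.036) or shOgt 3 (adjusted p = 0.033). The arms differ in agent, virus and duration at once, and these cannot be told apart.

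**Figure D3:**
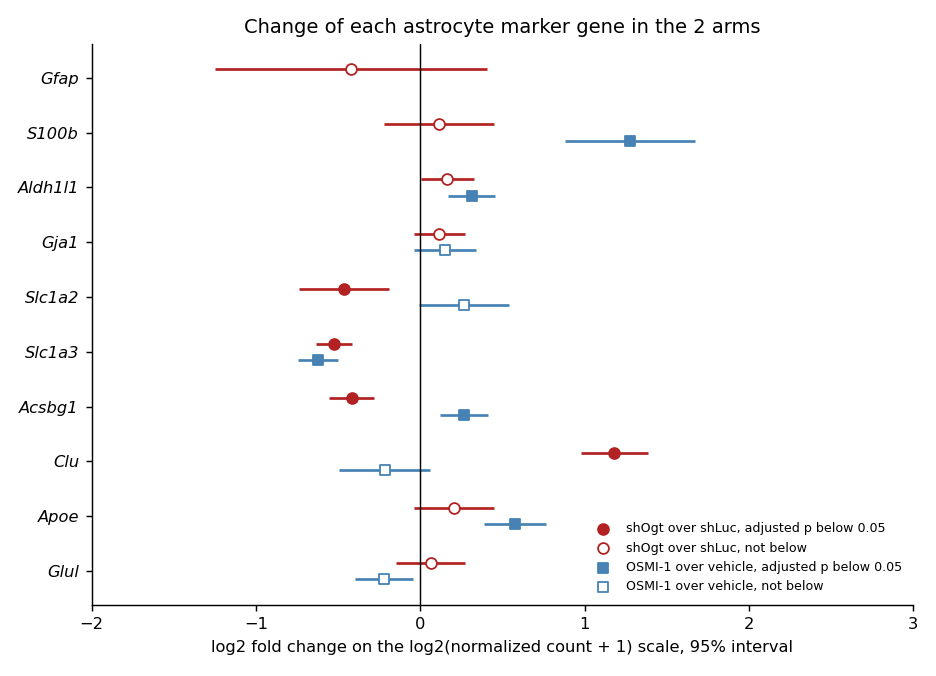
Log2 fold change of each marker with its 95% interval, on the log2(normalized count + 1) scale. Red circles are shOgt over shLuc and blue squares OSMI-1 over vehicle, filled where the limma adjusted p was below 0.05; Gfap has no point for OSMI-1 because it did not pass the count filter. Slc1a3 lies left of 0 in both, Clu lies farthest right after knockdown, and S100b, Apoe and Aldh1l1 lie right of 0 under OSMI-1.

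The markers were also summed in each library, and their deviations from group means were compared. Summed over the 10, they came to 30304 ± 1509 normalized counts in shOgt and 37507 ± 1599 in shLuc, a sum carried by Acsbg1 and Slc1a3. Under OSMI-1 the sum was 14596 ± 817 and in vehicle 14701 ± 772. Clu made up 4.39% ± 0.490% of the sum in shOgt and 1.56% ± 0.183% in shLuc. Slc1a3 made up 23.7% ± 1.77% of the sum under OSMI-1 and 36.2% ± 0.324% in vehicle. As a description over the 11 libraries of an arm after removing group means, deviations of Gja1 and Clu gave r = 0.86 in the knockdown arm and r = 0.64 in the inhibitor arm. Gja1 and Slc1a3 gave r = 0.85 in the inhibitor arm and r = -0.57 in the knockdown arm. These pairs had the highest r of the knockdown arm and of the inhibitor arm. Over all pairs of the 10 markers, r ran from -0.57 to 0.86 in the knockdown arm and from -0.74 to 0.85 in the inhibitor arm. Libraries of an arm share their scaling and sequencing, so these values are given without a p. A low r over 11 libraries does not show that 2 markers vary independently.

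Other markers of astrocytes were then counted, from lists chosen with earlier results of these data known. Of 40 further astrocyte markers, 30 were tested in the knockdown arm, and 6 rose and 9 fell (median log2 fold change -0.17, against 0.01 over all tested genes). With a mean of at least 10 normalized counts in both groups, 29 remained and gave 6 and 8. Sox9, a transcription factor of glial precursors and astrocytes, averaged 1391 ± 68.6 in shOgt and 2182 ± 306 in shLuc (log2 fold change -0.64 ± 0.09, adjusted p = 1.4e-05), and the potassium channel Kcnj16 298 ± 37.6 in shOgt and 462 ± 29.2 in shLuc (-0.64 ± 0.11, adjusted p = 1.3e-04). Ppp1r3c, which targets a phosphatase to glycogen, went the other way with 419 ± 74.6 in shOgt and 203 ± 31.7 in shLuc (log2 fold change 1.04 ± 0.14, adjusted p = 1.8e-05). The number that rose was 3 without shLuc 2 or without shOgt 1. Under OSMI-1, 29 were tested, 2 rose and 8 fell (median -0.23, against 0.00). At a mean of at least 10 in both groups, 28 remained and gave 1 and 8. The growth factor receptor Fgfr3 averaged 64.6 ± 13.7 in OSMI-1 and 170.4 ± 16.3 in vehicle (log2 fold change -1.41 ± 0.15, adjusted p = 2.9e-07), the glycolytic enzyme Aldoc 995 ± 102 in OSMI-1 and 1498 ± 155 in vehicle (-0.59 ± 0.08, adjusted p = 9.4e-06) and the peroxidase Prdx6 3294 ± 151 in OSMI-1 and 4102 ± 259 in vehicle (-0.32 ± 0.06, adjusted p = 5.2e-04). The number that fell was 5 without vehicle 3, and the number that rose was 1 without vehicle 3, 4 or 5 or OSMI-1 1 or 6. Sox9 and Fgfr3 were called in opposite directions in the 2 arms. Sox9 was higher under OSMI-1 (0.24 ± 0.08, adjusted p = 0.028) and Fgfr3 was higher after knockdown (0.62 ± 0.21, adjusted p = 0.031). The other further markers with changes given here were not called in both arms. So 4 of the 9 tested markers rose under OSMI-1 while more of the further markers fell than rose.

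Besides the 2 transporters, 9 of 18 tested genes that handle glutamate and glutamine fell after knockdown, out of 20 listed (median log2 fold change -0.29). Asns, which makes asparagine from glutamine, averaged 5185 ± 485 in shOgt and 7738 ± 743 in shLuc (log2 fold change -0.58 ± 0.07, adjusted p = 7.3e-06), the glutamine transporter Slc38a3 1584 ± 83.2 in shOgt and 2260.3 ± 206 in shLuc (-0.51 ± 0.07, adjusted p = 3.6e-05) and Aldh18a1, a proline synthesis enzyme, 2105 ± 112 in shOgt and 2830.4 ± 198 in shLuc (-0.43 ± 0.07, adjusted p = 7.3e-05). Under OSMI-1, 18 were tested, 4 rose and 5 fell (median -0.09). Asns fell again, with 979.6 ± 113 in OSMI-1 and 1681 ± 191 in vehicle (-0.78 ± 0.09, adjusted p = 4.5e-07). Aldh18a1 fell again too (-0.46 ± 0.10, adjusted p = 0.0012). Slc38a3 rose instead, with 1225 ± 141 in OSMI-1 and 833 ± 80.7 in vehicle (0.55 ± 0.09, adjusted p = 4.1e-05). The amino acid transporter subunit Slc3a2 averaged 7619.8 ± 700.5 in OSMI-1 and 5220.1 ± 206 in vehicle (0.54 ± 0.06, adjusted p = 1.3e-06) and the GABA transaminase Abat 924 ± 77.2 in OSMI-1 and 628 ± 65.5 in vehicle (0.56 ± 0.08, adjusted p = 3.1e-05).

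Partners of the 2 apolipoproteins in lipid transport moved in both directions. After knockdown, 22 of 26 lipoprotein and lipid genes were tested, 3 rose and 5 fell (median log2 fold change 0.02). Abca1 and Abcg1, the transporters that load cholesterol onto apolipoproteins, averaged 1033 ± 170.3 in shOgt and 487 ± 117 in shLuc (log2 fold change 1.10 ± 0.15, adjusted p = 1.3e-05) and 63.4 ± 6.69 in shOgt and 17.7 ± 4.57 in shLuc (1.81 ± 0.27, adjusted p = 4.7e-05). The number that fell was 3 without shLuc 1, 4 or 6 or without shOgt 1 or 6. Under OSMI-1, 21 were tested, 4 rose and 4 fell (median -0.0042). Abca1 was lower there, with 104 ± 22.1 in OSMI-1 and 194 ± 17.7 in vehicle (-0.92 ± 0.14, adjusted p = 3.6e-05), while Lrpap1, a chaperone of lipoprotein receptors, averaged 1593 ± 68.9 in OSMI-1 and 1185 ± 172 in vehicle (0.44 ± 0.08, adjusted p = 4.0e-04) and the sorting receptor Sort1 346 ± 27.04 in OSMI-1 and 260.4 ± 28.01 in vehicle (0.41 ± 0.10, adjusted p = 0.0037). Abca1 thus rose together with Clu in shOgt and fell while Apoe rose under OSMI-1.

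Most tested genes of a pooled filament and S100 list and of a reactive astrocyte list rose after knockdown, while Gfap and S100b themselves did not pass. Of 21 intermediate filament, filament-linked and S100 genes, 15 were tested, 11 rose and 2 fell (median log2 fold change 0.67). The 11 that rose were Vim, Lmna, the filament-linked Plec and Dst, and every tested S100A gene. The intermediate filament genes were split. Vim (0.49 ± 0.07, adjusted p = 4.2e-05) and Lmna (0.57 ± 0.09, adjusted p = 4.4e-05) rose, Lmnb1 and Lmnb2 fell, and Nes and Synm were not called. At a mean of at least 10 normalized counts in both groups, 14 of the 15 tested genes remained and gave 10 and 2 (median 0.62). S100a10 averaged 3563 ± 326 in shOgt and 1561 ± 207 in shLuc (log2 fold change 1.20 ± 0.09, adjusted p = 8.5e-09), S100a11 1220.2 ± 168 in shOgt and 581 ± 88.8 in shLuc (1.07 ± 0.11, adjusted p = 8.6e-07) and the lamin Lmnb1 1006 ± 109 in shOgt and 1651 ± 80.2 in shLuc (-0.72 ± 0.08, adjusted p = 1.7e-06). Of 34 genes reported for reactive astrocytes, 20 were tested, 14 rose and 1 fell (median 0.86). With a mean of at least 10 in both groups, 17 remained and gave 12 and 1 (median 0.74). The antigen-presentation gene H2-T23 averaged 336 ± 61.7 in shOgt and 125 ± 19.5 in shLuc (1.42 ± 0.15, adjusted p = 9.6e-07) and the chemokine Cxcl10 55.9 ± 17.1 in shOgt and 7.87 ± 3.58 in shLuc (2.74 ± 0.39, adjusted p = 2.6e-05). Under OSMI-1, 14 of the filament and S100 genes were tested, 1 rose and 4 fell (median -0.15). The lamins Lmnb1 and Lmnb2 both fell, Lmnb1 with 216 ± 28.8 in OSMI-1 and 703 ± 54.2 in vehicle (-1.70 ± 0.10, adjusted p = 7.2e-12). Of the reactive genes, 16 were tested, 1 rose and 1 fell (median -0.27), the protease inhibitor Serpina3n with 56.7 ± 13.5 in OSMI-1 and 20.03 ± 7.87 in vehicle (1.51 ± 0.28, adjusted p = 2.8e-04) and Vim with 4329 ± 594 in OSMI-1 and 6095 ± 660.4 in vehicle (-0.50 ± 0.09, adjusted p = 1.6e-04). These small counts moved with single libraries: 2 rose without vehicle 4, OSMI-1 2 or OSMI-1 6, and 2 or 3 fell without vehicle 1 or OSMI-1 2, 4 or 5. Vim and S100a10 stand in both the filament and S100 list and the reactive list and are counted in each.

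**Figure D4:**
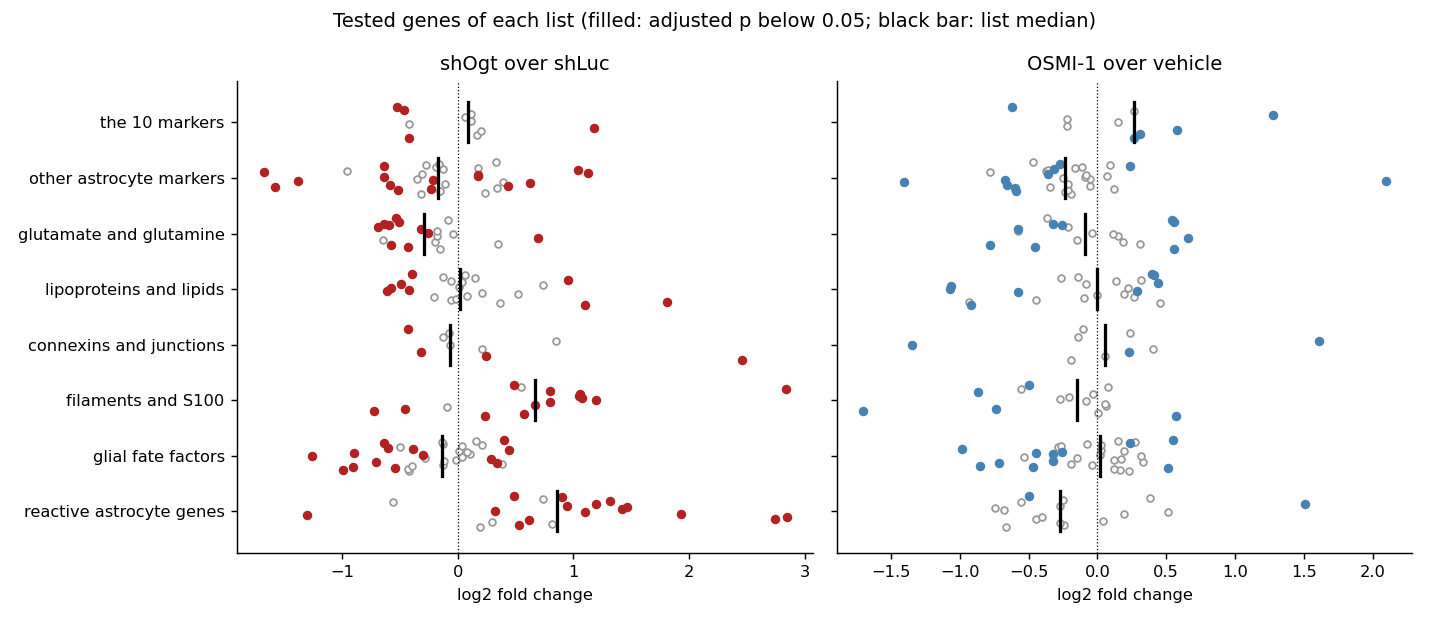
Log2 fold changes of the tested genes of each list, shOgt over shLuc on the left and OSMI-1 over vehicle on the right, 1 point a gene, filled where the limma adjusted p was below 0.05, with a black bar at the list's median. After knockdown the filament and S100 list (median 0.67) and the reactive list (median 0.86) lie to the right and the glutamate list (median -0.29) to the left, while the 10 markers lie on both sides of 0.

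Regulators of astrocyte formation were measured with them. Of 35 such genes, 32 were tested after knockdown, 4 rose and 10 fell (median log2 fold change -0.13). Lifr, the receptor subunit through which LIF and CNTF induce astrocyte genes, averaged 234 ± 24.6 in shOgt and 561 ± 62.97 in shLuc (log2 fold change -1.26 ± 0.11, adjusted p = 8.9e-08), and the DNA methyltransferase Dnmt1 1269.5 ± 199 in shOgt and 2359 ± 220.4 in shLuc (-0.90 ± 0.10, adjusted p = 1.0e-06). Under OSMI-1, 31 were tested, 3 rose and 8 fell (median 0.02). Dnmt1 was lower there too, with 601 ± 39.1 in OSMI-1 and 833 ± 58.6 in vehicle (-0.47 ± 0.08, adjusted p = 6.7e-05), as were Ezh2, a histone methyltransferase (92.2 ± 7.72 in OSMI-1 and 169 ± 29.9 in vehicle, adjusted p = 6.4e-05), and the BMP target Id1 (95.01 ± 10.9 in OSMI-1 and 156 ± 13.2 in vehicle, adjusted p = 2.3e-04). Id1 went the other way after knockdown (0.34 ± 0.13, adjusted p = 0.047). Without OSMI-1 4, 6 of the tested regulators rose under OSMI-1. Of 18 connexins and junction genes, the setting of Gja1, 9 were tested in each arm. The adhesion partner Ctnnb1 averaged 1523 ± 126 in shOgt and 1891 ± 79.9 in shLuc (-0.32 ± 0.07, adjusted p = 0.002) and, under OSMI-1, 1134 ± 81.7 in OSMI-1 and 965 ± 61.6 in vehicle (0.23 ± 0.07, adjusted p = 0.02), and the connexin Gja5 7.22 ± 4.11 in OSMI-1 and 18.1 ± 3.82 in vehicle (-1.35 ± 0.39, adjusted p = 0.014). After knockdown 2 rose and 2 fell, and under OSMI-1 2 rose and 1 fell. At a mean of at least 10 in both groups, 8 remained in each arm. These gave 1 and 2 after knockdown and 2 and 0 under OSMI-1. Among all 9, 7 single omissions after knockdown and 1 under OSMI-1 (OSMI-1 6, which left 0) changed the number that rose. Those 7 were shLuc 1, 3 and 4 and shOgt 1, 2, 5 and 6, each of which left 1.

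Markers of other cells were summed in the same libraries, and their part in the results was not tested. Of 17 oligodendrocyte lineage genes, the sum ran from 12381 to 14252 normalized counts in shOgt and from 19953 to 23031 in shLuc, without overlap, and was carried by Olig1 at 10256 ± 586 in shOgt and 18601 ± 1080.0 in shLuc (log2 fold change -0.86 ± 0.06, adjusted p = 2.1e-09). Of the 7 tested, 3 fell (Olig1, Olig2 and Cspg4) and 1 rose, the last count being 2 without shLuc 1 and 0 without shOgt 1. The myelin gene Mog was at 0 in every knockdown library. Under OSMI-1 that sum ran from 11957 to 15871, against 10813 to 13793 in vehicle, and Gpr17 was at 0 in all libraries of that arm. There 8 were tested, 1 rose (0 without vehicle 2, 4, 5 or 6 or OSMI-1 1, 2 or 6) and 1 fell (0 without vehicle 2, 3, 4 or 5 or OSMI-1 4 or 5, and 2 without OSMI-1 6). The gene that rose was Olig1 (0.22 ± 0.08, adjusted p = 0.035), which had fallen after knockdown. At a mean of at least 10 in both groups of the inhibitor arm, 6 remained and gave 1 and 0. Of 18 neuronal genes, 9 were tested in each arm, with 2 higher and 3 lower after knockdown and 1 higher and 4 lower under OSMI-1. The synaptic vesicle gene Syt1 averaged 261 ± 58.4 in shOgt and 46.4 ± 19.4 in shLuc (2.52 ± 0.23, adjusted p = 1.7e-07), the neuronal tubulin Tubb3 397 ± 25.8 in shOgt and 235 ± 38.01 in shLuc (0.77 ± 0.13, adjusted p = 1.1e-04) and, under OSMI-1, 50.2 ± 6.02 in OSMI-1 and 88.5 ± 14.1 in vehicle (-0.80 ± 0.17, adjusted p = 0.0011), and Neurog2 was at 0 in all 22 libraries. The 3 that fell after knockdown were Map2, Elavl4 and the calcium-binding protein gene Calb2, which averaged 402 ± 33.9 in shOgt and 727 ± 154 in shLuc (-0.83 ± 0.12, adjusted p = 4.2e-05) and, under OSMI-1, 35.2 ± 5.21 in OSMI-1 and 97.9 ± 11.6 in vehicle (-1.45 ± 0.17, adjusted p = 1.1e-06). Under OSMI-1, Syt1 was lower (-0.65 ± 0.22, adjusted p = 0.030) and Map2 was higher (0.39 ± 0.09, adjusted p = 0.0024), each opposite to its change after knockdown. Microglial genes (15 in the list) summed to 361 to 488 in shOgt and 309 to 448 in shLuc, with Cx3cr1, C1qa, C1qb and Ctss at 0 throughout, and to 184 to 274 under OSMI-1 and 235 to 282 in vehicle, with Aif1, C1qc and Trem2 at 0. Vascular and fibroblast genes (16) summed to 35.2 to 123 in shOgt, 25.1 to 52.0 in shLuc, 45.8 to 117 under OSMI-1 and 101 to 113 in vehicle. Of these, 2 microglial and 2 vascular genes were tested after knockdown and 1 of each under OSMI-1, and the single call was Tek after knockdown, which was lost without shLuc 3 or 4 or shOgt 1, 2, 3 or 6, while 2 vascular genes rose without shOgt 5. A vascular gene fell without OSMI-1 5. Of the vascular genes tested after knockdown, Tek included, 0 had a mean of at least 10 in both groups. Ependymal and choroid plexus genes (12) summed to 265 to 375 in shOgt and 231 to 350 in shLuc, and to 101 to 154 under OSMI-1 and 208 to 255 in vehicle, the last pair without overlap, with Tmem212 and Pifo at 0 throughout. The ciliogenesis factor Foxj1 averaged 53.3 ± 10.9 in OSMI-1 and 126 ± 32.2 in vehicle (-1.20 ± 0.19, adjusted p = 6.6e-05). It and Otx2 were the 2 of 3 tested genes that fell under OSMI-1, 1 without vehicle 1 or 6 or OSMI-1 2 or 6, and 1 of 4 rose after knockdown. Of 19 stem cell and radial glia genes, 15 were tested after knockdown (3 rose, 4 fell) and 13 under OSMI-1 (3 rose, 5 fell). Ptprz1, a receptor phosphatase of glial precursors, averaged 4578 ± 498 in shOgt and 7303 ± 903 in shLuc (-0.67 ± 0.09, adjusted p = 7.3e-06) and, under OSMI-1, 8319 ± 871 in OSMI-1 and 5599 ± 581 in vehicle (0.57 ± 0.08, adjusted p = 6.4e-06), and the matrix protein Tnc averaged 22145 ± 1605 in shOgt and 13096 ± 1312 in shLuc (0.76 ± 0.07, adjusted p = 1.7e-07). Tnc was lower under OSMI-1 (-0.34 ± 0.08, adjusted p = 0.0037).

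For the marker with the smallest adjusted p in each arm, the 3 genes whose log2 values followed it most closely over the 11 libraries were listed. For Clu in the knockdown arm these were Maged2 (r = 0.9897), Btg2 (r = 0.9841) and Cdkn2b (r = 0.9834), whose log2 fold changes were 0.81 ± 0.07, 2.04 ± 0.09 and 1.14 ± 0.09. For Slc1a3 in the inhibitor arm they were Pcolce (r = 0.9919), Mest (r = 0.9891) and Lmnb1 (r = 0.9880), whose log2 fold changes were -1.64 ± 0.08, -1.23 ± 0.07 and -1.70 ± 0.10. These correlations include the difference between the groups and carry no p.

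Genes with the 7 letters AACATGC in the 3′ untranslated region, a site that earlier results of these data had pointed to, were counted beside the markers. Of 988 tested genes with the site 29.4% fell after knockdown, against 15.7% of 10288 genes without it, and under OSMI-1 the shares were 11.1% of 953 and 13.6% of 9675. Because the site was taken from these same data, the shares describe it and are not a test of it. None of the 10 markers carried the site in the annotated region, the falling Slc1a3, Acsbg1 and Slc1a2 included. Why those genes fell was not tested.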

How the data were processed

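RNA was sequenced from 22 libraries in 4 groups taken from the sample labels (5 shOgt, 6 shLuc, 5 OSMI-1, 6 vehicle). STAR, RSEM and DESeq2 are named in the submitters' processing notes without versions; these list a human build (hg38), although the tables carry mouse symbols. The labels' protocol names a strand-specific poly(A) kit and the design text Smart-Seq2, which was not settled here. Which library kit and which strand setting produced the counts is therefore unknown, and reads from overlapping genes may be misassigned.

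The authors deposited 1 table per arm, and per the file headers each holds a normalized count per library (a signal, gene counts divided by a size factor), with the authors' base mean, log2 fold change, its standard error, a Wald score, p-value and adjusted p-value. Every positive value was a whole multiple of 1 step per library (100% within 0.001), so reads were recovered. The authors' log2 fold changes run shOgt over shLuc but vehicle over OSMI-1, checked on the library values; fold changes computed here are treated over control.

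Genes passing edgeR's filterByExpr on the reads (minimum count 10, minimum total 15) were tested with limma 3.58.1 (R 4.3.3, intensity trend, two-sided, no covariate) on log2(normalized count + 1), separately by arm, with Benjamini-Hochberg adjustment over all tested genes and calls at 0.05. Fold changes on this scale understate changes of low genes. The difference between arms was a contrast in 1 fit over all libraries. Gfap in the inhibitor arm, below the filter, was tested by exact permutation. All genes were also tested with edgeR 4.0.16 and DESeq2 1.42.0 on the recovered reads, and the procedure was tested on simulated data. Lengths for RPKM, computed here, are of the longest principal transcript in the GENCODE annotation of GRCm38, not the authors' build; 23376 genes of each table had a length.

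The members and lists were chosen with earlier results of these data known. The text names all 10 members, Ogt, Mgea5, up to 3 called genes with the smallest adjusted p per list and arm, and the 3 genes closest in pattern to 1 member per arm. Values of Aqp4, Gjb6, Cst3, Mlc1, Prdx6, Mt3, Hepacam, Aldoc, Slc25a18, Fabp7, Vim, Nes, Sox2, Hes5, Prom1, Msi1, Hopx and Thbs4 as levels were added after values were seen. So were the names Map2, Elavl4, Lmna, Lmnb2, Nes, Synm, Plec and Dst, and values of some named genes in the other arm. Some genes that this rule picks are not reported here.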

Additional observations from a re-analysis of the deposited data

Results flagged for a closer look

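The 2 treatments differed in their effect on 4 markers by the test of the difference itself (limma, knockdown minus OSMI-1, log2 scale, adjusted over 11269 genes). Clu differed by 1.40 ± 0.17 (adjusted p = 2.8e-07), being higher in 5 of 5 shOgt libraries than in any shLuc library and overlapping between OSMI-1 and vehicle. Acsbg1 differed by -0.68 ± 0.10 (adjusted p = 3.9e-06), being lower in 5 of 5 shOgt libraries and higher than every vehicle library in 4 of 5 OSMI-1 libraries. S100b differed by -1.16 ± 0.25 (adjusted p = 9.4e-04), being higher in 5 of 5 OSMI-1 libraries and overlapping between shOgt and shLuc. Slc1a2 differed by -0.73 ± 0.19 (adjusted p = 0.0046), with log2 fold changes of -0.46 ± 0.13 after knockdown and 0.27 ± 0.13 under OSMI-1, the second of which did not pass by itself. No library stood apart from its group in any of the 40 tests made for the 10 markers in 4 groups, where chance alone flags about 1 in 20.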

How the results depend on the processing

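Over the alternatives (pseudocounts of 0.5 and 5, no filter, a mean of at least 50, edgeR, DESeq2, TMM scaling, a replicate block, each library left out, and the libraries that stand apart left out), 375 of 379 values of the members' log2 fold changes kept their direction and their side of the threshold, and 4 passed it newly: Glul under OSMI-1 with DESeq2 (adjusted p = 0.045), without vehicle 6 or without OSMI-1 1, and Slc1a2 under OSMI-1 without vehicle 4. The number of members that fell under OSMI-1 was accordingly 2 with DESeq2, and 1 to 2 over single omissions. The adjusted p of Slc1a2 after knockdown ran over 0.0038 to 0.039 and that of Acsbg1 under OSMI-1 over 1.0e-03 to 0.027. The difference between the arms for Gja1 changed sign to 0.0023 without vehicle 2 and to 0.0075 without OSMI-1 1, within a range over single omissions of -0.089 to 0.0075, far inside its standard error. The difference of Gfap means under OSMI-1 ran from -7.17 to -4.28 normalized counts over single omissions, and was -6.67 (exact permutation p = 0.016) without the libraries that stand apart. Genes called numbered 3208 to 4101 after knockdown and 2376 to 3011 under OSMI-1 over the alternatives. The labels share replicate numbers between groups, but deviations of same-numbered libraries correlated only -0.0086 to 0.16 after knockdown and -0.099 to 0.051 with OSMI-1, and 1 of 5 and 0 of 5 correlated best with their own number; with the replicate block 3954 and 2376 genes were called, and 4 and 5 members, as without it, while 3 lipid genes fell after knockdown (5 without it), 2 oligodendrocyte genes rose (1 without it), and 1 further astrocyte marker rose under OSMI-1 (2 without it). With no filter 3 further astrocyte markers rose and 3 lipid genes fell after knockdown. Without the libraries that stand apart, 1 junction gene rose and 3 reactive genes fell under OSMI-1. TMM scaling moved the median of all genes by less than 0.1 on the log2 scale. Depth limits Gfap, with 0 to 14 reads per library in the inhibitor arm and 7 to 27 in the knockdown arm.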
